A study of Danio rerio with 16 samples.

Results

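The genes described here are the potassium channel genes of larval zebrafish, taken as the protein-coding genes whose symbol starts with kcn and whose mean level was at least 0.5 FPKM over the 8 libraries of eye or the 8 of brain. FPKM is a read number per length of the gene, scaled per library in a way that the labels do not give. The rule gave 82 members among 108 protein-coding kcn genes and 31901 genes in all. Of these, 56 reached the level in both tissues, 7 in eye alone and 19 in brain alone. They were selected on these FPKM levels over all libraries, so levels are given below as a description with no test.

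The larvae were wild-type and were kept from 6 to 120 hours post fertilization (hpf) in 0.2 uM IPP, a mixture of isopropylated aryl phosphates used as a flame retardant and plasticizer. All larvae, controls included, were in 0.02% dimethyl sulfoxide (DMSO), the vehicle. At 120 hpf eyes and brains were dissected, which gave 4 groups of 4 libraries: eyes and brains, each from DMSO and from IPP larvae. The labels do not say how many larvae went into a library or whether same-numbered libraries share larvae, so the p-values below measure the spread between these libraries only.

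Potassium channels let potassium leave the cell down its gradient and so set the resting potential, end action potentials and pace firing. Voltage-gated channels are tetramers of alpha subunits of the Shaker (kcna), Shab (kcnb), Shaw (kcnc) and Shal (kcnd) classes. The kcnf, kcng, kcns and kcnv genes encode subunits that are silent alone and modify Shab channels, while kcnab, kcne and kcnip genes encode auxiliary proteins. The ether-a-go-go (kcnh) and kcnq channels add slower voltage-gated currents, kcnma and kcnn channels open on intracellular calcium, kcnt channels on sodium, kcnj genes encode inward rectifiers, and kcnk genes encode the leak channels of the tandem pore class. In the mammalian retina the photoreceptors hold their dark potential with a Shab channel that contains a kcnv subunit, and loss of that subunit in humans causes a cone dystrophy with altered rod responses.

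The libraries matched their tissue labels. The rod opsin gene rho had a mean of 4601 FPKM in DMSO eyes and 2.84 in DMSO brains, the lens gene cryaa 303 and 0, and the forebrain gene neurod6b 1.87 and 68.3. Reads rebuilt from the FPKM gave a depth of between 10.6 M and 12.5 M in the eye libraries and between 9.62 M and 16.3 M in the brain libraries. Brain libraries differed in their levels of genes typical of other tissues. The skin keratin gene krt4 ranged from 2.19 to 285 FPKM over the 8 brain libraries, the heart gene myl7 was 15.4 FPKM in IPP brain 4 and at most 0.136 in the other 7, and rho was 35.3 FPKM in IPP brain 4. Genes induced by neuronal activity were high in libraries IPP 3 and IPP 4 of both tissues, with fosab at 470 and 293 FPKM in brain there and between 53.9 and 198 in the other 6 brain libraries.

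The channel genes that fell just inside the limit were kcnh3 with a higher tissue mean of 0.578 FPKM, kcnj1a.3 with 0.579 and the kcnh1a gene ENSDARG00000024167 with 0.603. Just outside were kcnj1a.6 with 0.491, kcnj1a.4 with 0.475 and kcnk10b with 0.418. In all 26 kcn genes stayed under the limit, and 4 of them, kcna2a, kcnj2b, kcnj11 and kcnk18, were listed at 0 in every library. A further 9 genes with symbols in capitals are outside the rule, although 8 of them reached 0.5 FPKM in a tissue. Over the 8 brain libraries KCNJ6 averaged 34.7 FPKM and KCNIP1 27.4, above every member but kcnn1a. Over the 8 eye libraries they averaged 9.64 and 5.19 FPKM. Sums, shares and rankings below leave these genes out. Of the members, 27 overlap another annotated gene and 17 an annotated gene of the opposite strand, and the use of strand in counting is unclear, so reads of overlapping genes may be shared. Among the 17 are kcnj8, kcnj13 and kcnip3b. Among those with a gene of the same strand are kcnj10a, kcnd1 and kcnn3.

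In vehicle larvae a few members carried much of the summed level of the 82, and the highest was a different gene in eye and in brain. The summed level of the 82 members was 276, 278, 232 and 277 FPKM in DMSO eyes 1 to 4 and 401, 377, 432 and 409 FPKM in DMSO brains 1 to 4. In eye the Shab gene kcnb2 made up 21.7% of the sum, and with kcnn1a, kcnj11l, kcnma1a and kcnv2a it reached 41.1%. In brain the small-conductance calcium-activated channel gene kcnn1a led with 12.3%, and the 5 highest members made up 32.8%, among them the large-conductance calcium-activated channel gene kcnma1a, the Shaw gene kcnc1a and the G protein-gated inward rectifier gene kcnj3b. The median member had 1.33 FPKM in DMSO eyes and 1.93 in DMSO brains. Each table was scaled on its own, so the eye and brain levels set side by side here are given without a test, and in whole tissue fewer cells of a type and less RNA per cell cannot be told apart.

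Sums by class cover the members alone, without genes in capitals such as KCNJ6, KCNN2 and KCNB2. The Shab gene kcnb2 was the class with the highest level in eye, at 57.6 ± 3.79 FPKM (SD, n = 4) against 0.646 ± 0.0434 (n = 4) in brain. The kcnv genes summed to 18.9 ± 0.669 FPKM in DMSO eyes and 0.256 ± 0.147 in DMSO brains. By a smaller margin the kcnab genes, at 11.6 ± 2.44 and 5.73 ± 1.01 FPKM, and the kcnh genes, at 22.9 ± 2.77 and 15.7 ± 1.54, were also higher in eye. For both classes every DMSO eye lay above every DMSO brain. In the other direction the 6 Shaw genes summed to 13.7 ± 2.39 FPKM in eye and 65.8 ± 8.62 in brain, the 3 kcnn genes to 20.9 ± 2.54 and 68.7 ± 3.14, and the 3 Shal genes to 15.4 ± 1.27 and 36.5 ± 1.36. The 15 inward rectifiers summed to 42.4 ± 2.74 FPKM in eye and 85.1 ± 1.81 in brain. The kcnq genes, at 7.62 ± 1.21 and 7.92 ± 0.969, and the kcng genes, at 13.3 ± 2.18 and 14.1 ± 1.37, had sums that overlapped between the tissues.

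**Figure D1:**
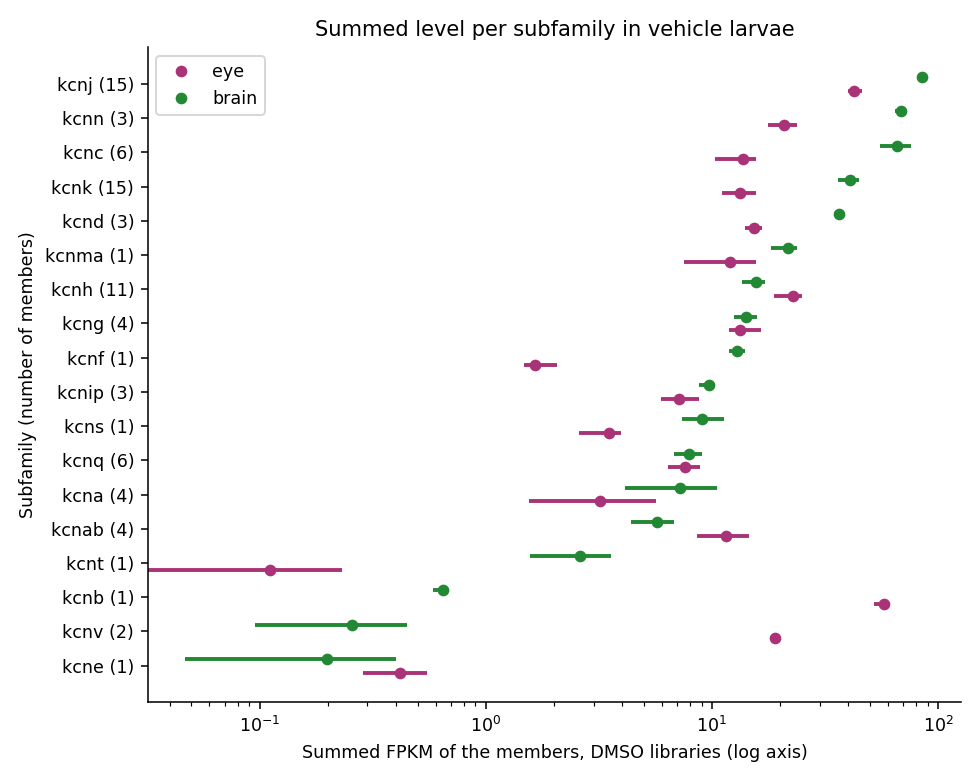
Summed FPKM of the members of each class in the 4 DMSO libraries of eye and of brain, on a log axis; points are means and lines run from the lowest to the highest library, with the number of members in brackets. The kcnb and kcnv classes lie far higher in eye, and kcnab and kcnh higher there by a smaller margin. Among the classes higher in brain are kcnc, kcnn and kcnf. The lowest eye library of kcnt was listed at 0 and its line leaves the axis.

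Among single members, 7 of 82 had at least 4-fold the level in DMSO eyes that they had in DMSO brains, as a ratio of mean FPKM + 0.5, against 5.44% of 18773 genes with at least 0.5 FPKM in a tissue. The 4 with the highest ratios were the Shab gene and 3 genes of silent subunits. kcnb2 was at 59.3, 60.1, 51.9 and 58.9 FPKM in DMSO eyes 1 to 4 and at 0.657, 0.658, 0.685 and 0.584 in DMSO brains 1 to 4, a 50.7-fold ratio. kcnv2b was at 6.72, 9.96, 7.89 and 8.01 FPKM in DMSO eyes and at 0.0465, 0, 0 and 0 in DMSO brains, a 16.9-fold ratio. The lowest eye library of each gene stood far above its highest brain library.

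kcnv2a, the other copy of kcnv2b, was at 12.1, 9.48, 11.5 and 9.9996 FPKM in DMSO eyes and at 0.0489, 0.268, 0.213 and 0.448 in DMSO brains, a 15.1-fold ratio. kcng4b, which in zebrafish embryos is known for a role in brain ventricle formation, was at 6.94, 10.02, 7.44 and 7.05 FPKM in DMSO eyes and at 0.166, 0, 0.0482 and 0.507 in DMSO brains, a 12.3-fold ratio. The deposited tables place kcnb2 on chromosome 2 from 30144979 to 30177469, kcnv2a on chromosome 10 from 15310811 to 15314151, kcnv2b on chromosome 5 from 9078198 to 9090178 and kcng4b on chromosome 7 from 56651759 to 56655773, on a build not given in the sources used here, and none of these 4 overlaps another annotated gene. The other 5 members of the Shab and silent classes lay the other way, with all 4 eye libraries below all 4 brain libraries for kcnf1b, kcng1, kcng2 and kcns3a and with overlapping libraries for kcng4a.

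The other 3 members with a ratio of at least 4 were ether-a-go-go and kcnq genes. kcnh6a, an ERG-type channel gene whose mutants have a cardiac repolarization defect in zebrafish, had 10.7 ± 1.42 FPKM in DMSO eyes and 1.88 ± 0.17 in DMSO brains. Its copy kcnh6b had 2.30 ± 0.593 and 0.0278 ± 0.0367 FPKM, and kcnq1, best known from heart and inner ear, 2.96 ± 0.520 and 0.191 ± 0.206. The inward rectifier gene kcnj14 was listed at 0 in all 4 DMSO brains and was at 1.01, 0.748, 0.158 and 4.06 FPKM in DMSO eyes, so that its eye level was spread widely.

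Higher in brain by at least 4-fold were 15 of 82 members, beside 5.79% of all genes. They held 3 Shaw genes, kcnc1a and kcnc1b among them, whose channels allow fast firing, and 5 leak channel genes, kcnk1b, kcnk2b, kcnk10a, kcnk13a and kcnk15. The rest were kcnf1b, kcng1, the sodium-activated channel gene kcnt1, kcnh4a, kcnip1b, kcnd3 and the Shaker gene kcna1a. The ratio was highest for kcnc1b, which was at 1.18, 0.694, 0.465 and 0.945 FPKM in DMSO eyes and at 8.18, 6.95, 9.70 and 9.94 in DMSO brains, 6.96-fold higher in brain. All its brain libraries lay above its eye libraries, but kcnc1b overlaps sergef on the opposite strand. The leak channel gene kcnk15 had 1.60 ± 0.371 FPKM in DMSO eyes and 13.3 ± 1.99 in DMSO brains, and kcnf1b 1.66 ± 0.281 and 12.9 ± 1.02.

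Counted by library, all 4 DMSO eyes lay below all 4 DMSO brains for 47 of 82 members, against 36.6% of all genes, and above them for 15, against 16%. The median log2 ratio of eye over brain was -0.85 over the members and -0.29 over all genes. With each library rescaled to the same sum over all genes, the median of all genes moved to -0.54, and 23 members rather than 15 were at least 4-fold higher in brain and 8 rather than 7 in eye. With a pseudocount of 1 these counts were 5 and 5. The rescaling also raised the levels in every library, while the added 0.5 stayed the same and so weighed less. No share of all genes is given for the rescaled levels or for the pseudocount of 1. The shift in these counts is therefore not a result about the members.

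**Figure D2:**
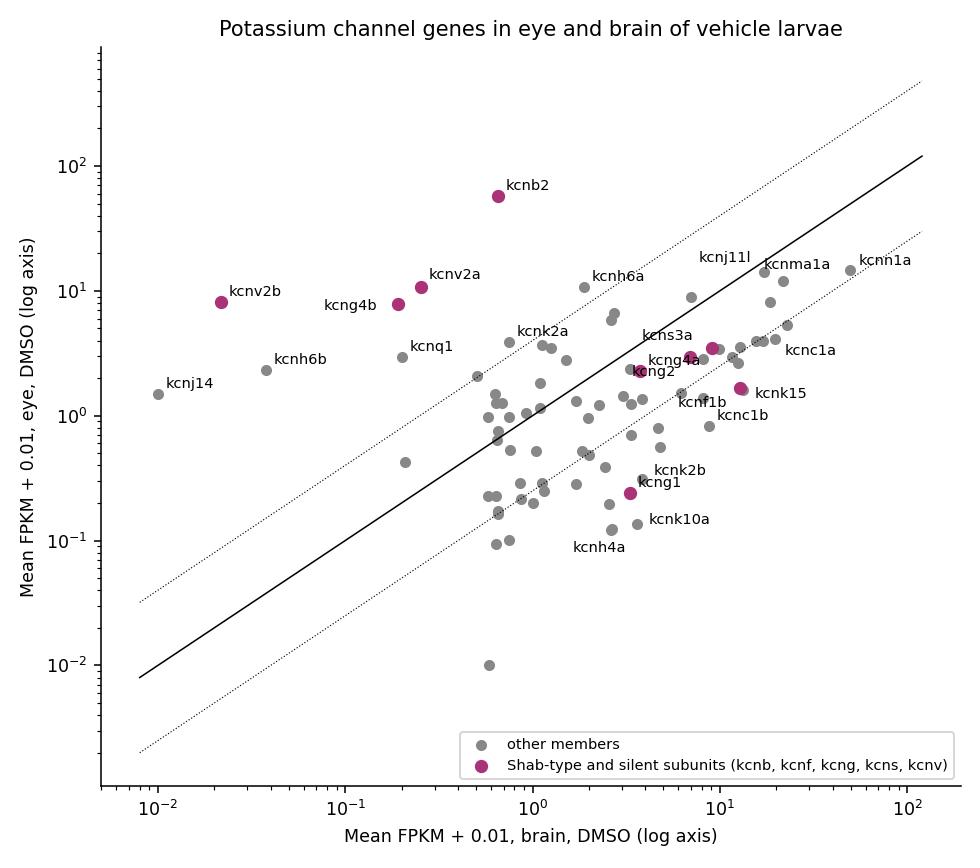
Mean FPKM + 0.01 of the 82 members in the 4 DMSO eyes against the 4 DMSO brains, both axes log; the solid line marks equal levels and the dotted lines a 4-fold ratio without the added 0.5. kcnb2, kcnv2a, kcnv2b and kcng4b lie far above the solid line, while the other Shab-type and silent subunit genes lie below it. kcnj14 and kcnh6b, of other classes, also lie far above it, at lower eye levels.

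Some duplicated copies of the same channel gene had different shares in eye and brain. Of 21 kcn pairs with an a and a b copy, 10 had log2 a over b ratios that did not overlap between DMSO eyes and DMSO brains and differed by at least 2-fold, against 35.9% of all 2474 such pairs in the tables. The copies of the mechanosensitive leak channel gene kcnk2 were opposite. kcnk2a was at 4.52, 3.54, 3.35 and 4.14 FPKM in DMSO eyes and 0.679, 0.668, 0.808 and 0.787 in DMSO brains. kcnk2b was at 0, 0.0653, 0.505 and 0.630 FPKM in DMSO eyes and 4.30, 3.32, 4.48 and 3.27 in DMSO brains. The a copy thus led in eye and the b copy in brain, with a log2 ratio of 2.54 ± 0.66 (SD, n = 4) in eye and -1.80 ± 0.21 in brain, although kcnk2b overlaps smyd2b on the same strand.

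The kcng4 copies were opposite too, with a log2 a over b ratio of -1.62 ± 0.22 in eye and 2.68 ± 0.64 in brain. In the kcnn1, kcns3, kcnj12 and kcnf1 pairs the same copy led in both tissues by a different margin, for example 2.42 ± 0.18 in eye and 3.73 ± 0.20 in brain for kcnn1. Ratios in the kcnj12, kcnf1, kcns3 and kcnh5 pairs rest on a copy under 0.5 FPKM in both tissues. The kcnh6 and kcnk3 pairs had ratios in both tissues whose ranges overlapped.

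**Figure D3:**
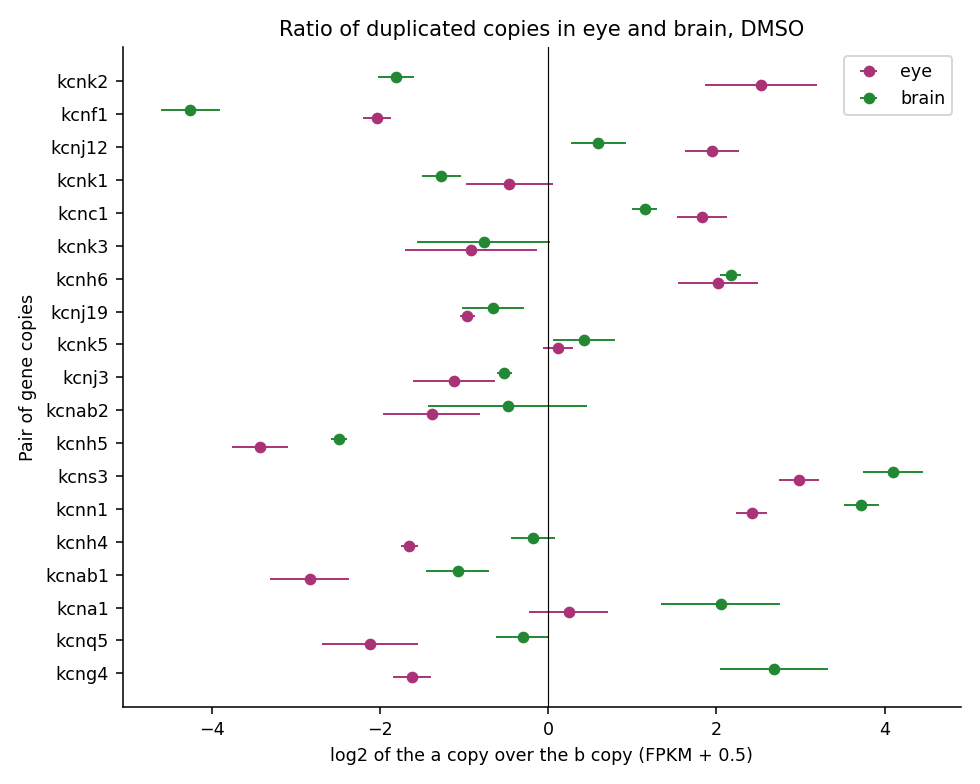
Log2 ratio of the a copy over the b copy (FPKM + 0.5) in the 4 DMSO eyes and the 4 DMSO brains, as mean and SD, for the pairs reported here. The kcnk2 and kcng4 pairs lie on opposite sides of 0 in the tissues.

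The exposure question was whether channel genes differ between IPP and DMSO larvae in each tissue. In eye no member, and no gene among 17096 tested, passed an adjusted p of 0.05 in limma with the Benjamini-Hochberg adjustment, so 0 of 63 members were called beside 0% of all genes. At an unadjusted p under 0.05, 11 members were lower in IPP eyes, against 5.73% of all genes, and 5 were higher, against 5.3%. With limma-voom on the rebuilt reads these were 12 and 6, again with 0 called. No share of all genes is given for limma-voom, so its counts are not a result about the members. In 6 members all IPP eyes lay below all DMSO eyes, beside 3.54% of all genes, and in 2 all lay above, beside 2.22%. kcnk1a, in both counts of higher members, and kcnj13, among the 5, had DMSO means under 0.5 FPKM in eye. Only their IPP levels brought them into the test, so they do not support a rise. The members' median log2 fold change was -0.06 and that of all genes -0.00, with 35 members below 0 against 50.5% of all genes. On simulated eye data the same test found 80 of 100 genes changed by 2-fold. Those genes had at least 2 FPKM, and 100 more were changed by 4-fold at the same time. The median of the 82 members in DMSO eyes was 1.33 FPKM, so this number does not cover the lower members. Many changed genes also make the adjusted threshold easier to pass, and no gene was called in these eyes. The number is therefore not the share of 2-fold changes that the test would find in these eyes.

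The members with the smallest p were lower with IPP and included an auxiliary subunit of Shal channels and a Shal gene. kcnip3b, whose product calsenilin binds calcium and also acts as a transcriptional repressor in mammals, was at 3.46, 4.96, 3.47 and 2.92 FPKM in DMSO eyes 1 to 4 and at 1.54, 1.31, 1.55 and 1.05 in IPP eyes 1 to 4. Every IPP eye was below every DMSO eye. The log2 fold change on the FPKM + 0.5 scale was -1.16 with an SE of 0.19 and an adjusted p of 0.189 in limma. kcnd1, the Shal gene of A-type currents that was highest in eye, was at 8.62, 9.36, 8.73 and 8.80 FPKM in DMSO eyes and at 5.76, 6.34, 4.22 and 4.65 in IPP eyes, a log2 fold change of -0.72 (SE 0.14) with an adjusted p of 0.24. These groups did not overlap either.

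The other Shal genes had smaller differences and overlapping groups. kcnd2 had 3.93 ± 0.592 FPKM with DMSO and 2.95 ± 0.508 with IPP, and kcnd3 2.62 ± 0.742 and 2.17 ± 0.585. The 3 Shal genes together summed to between 14.1 and 16.7 FPKM in DMSO eyes and between 9.0 and 12.7 in IPP eyes, with no overlap. This sum contains kcnd1, which was picked by its small p. kcnd1 averaged 8.88 FPKM of a mean sum of 15.4 with DMSO and 5.24 of 10.4 with IPP. The sum is therefore no separate support for a change of the class. Of the other kcnip genes, kcnip1b had a log2 fold change of -0.12 (SE 0.25) and kcnip2 of 0.77 (SE 0.33, adjusted p 0.434). In brain kcnip3b had 1.11 ± 0.325 FPKM with DMSO and 0.934 ± 0.326 with IPP, and kcnd1 7.03 ± 0.510 and 6.80 ± 1.71.

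Inward rectifiers were found on both sides, where 4 of 15 genes were lower and 3 were higher with an unadjusted p under 0.05, beside 5.73% and 5.3% of all genes. Among the 3 is kcnj13, which only its IPP level brought into the eye test, so it does not support a rise. kcnj19b was at 3.82, 3.53, 3.18 and 3.19 FPKM in DMSO eyes and at 1.73, 1.91, 1.48 and 1.56 in IPP eyes, a log2 fold change of -0.86 (SE 0.14) with an adjusted p of 0.189. kcnj3b, a G protein-gated channel gene whose product carries the slow inhibitory current of many transmitter receptors, was at 9.16, 8.84, 7.44 and 6.95 FPKM in DMSO eyes and at 4.12, 5.01, 3.57 and 5.11 in IPP eyes, a log2 fold change of -0.80 (SE 0.15) with an adjusted p of 0.238. All IPP eyes were below all DMSO eyes for both. Its copy kcnj3a had 3.54 ± 0.952 FPKM with DMSO and 2.18 ± 0.745 with IPP, with overlapping groups, while the G protein-gated genes kcnj5 and kcnj9 had log2 fold changes of 0.04 (SE 0.22) and -0.02 (SE 0.39). kcnj1b, named after its values were seen, had 2.85 ± 0.260 and 1.91 ± 0.428 FPKM with no overlap.

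Higher in IPP eyes was kcnj8, the pore gene of a channel gated by ATP and typical of pericytes and vascular smooth muscle in mammals. It was at 0.922, 1.15, 1.11 and 0.987 FPKM in DMSO eyes and at 2.12, 1.58, 1.65 and 2.08 in IPP eyes, so every IPP eye was above every DMSO eye. Its log2 fold change was 0.61 (SE 0.16) with an adjusted p of 0.303 in limma. The endothelium list, which holds no pericyte or smooth muscle marker, had 2 of 4 tested genes below 0 and 2 above, and the part of vessel cells in the kcnj8 value was not tested. kcnj11l, the much more abundant member of the same type, was at 14.2 ± 0.764 and 14.7 ± 1.94 FPKM.

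kcnj10a, the main potassium buffering channel gene of glia, was at 1.46, 0.364, 0.503 and 2.55 FPKM in DMSO eyes and at 3.29, 2.63, 2.63 and 1.96 in IPP eyes. DMSO eye 4 lay within the IPP range, and the log2 fold change of 1.03 (SE 0.38) had an adjusted p of 0.384. The list of Mueller and radial glia genes had 5 of 8 genes below 0 and 3 above. kcnj13, a channel gene of the pigment epithelium and of zebrafish stripe formation, had 0.478 ± 0.157 FPKM with DMSO and 0.990 ± 0.369 with IPP. Its DMSO mean was under the 0.5 limit, so only its IPP level brought it into the eye test. Of 8 pigment epithelium genes, 7 had a log2 fold change below 0 in eye. kcnj13 was higher in DMSO brains than in DMSO eyes, at 1.98 ± 0.581 FPKM in brain, with all DMSO eyes below all DMSO brains. The part of pigment epithelium in its eye level was not tested. kcnj14 was at 3.68, 3.38, 1.79 and 1.37 FPKM in IPP eyes, a range that overlapped the DMSO eyes, and had an adjusted p of 0.538.

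Among leak channels kcnk1a was at 0.117, 0.350, 0.113 and 0.515 FPKM in DMSO eyes and at 1.09, 0.598, 1.58 and 0.918 in IPP eyes. These groups did not overlap, and the log2 fold change was 1.0 (SE 0.27) with an adjusted p of 0.304. The DMSO mean of kcnk1a in eye, 0.274 FPKM, was under the 0.5 limit, so only its IPP level brought it into the eye test. Of all members it was the gene whose groups were also apart in brain, where it was at 0.974, 1.304, 2.26 and 2.28 FPKM with DMSO and at 2.48, 2.79, 2.32 and 3.21 with IPP, a log2 fold change of 0.58 (SE 0.24) with an adjusted p of 1.0. Its copy kcnk1b had log2 fold changes of 0.25 (SE 0.27) in eye and 0.10 (SE 0.26) in brain. kcnk5a was at 2.02, 1.08, 1.09 and 0.990 FPKM in DMSO eyes and at 0.219, 0.272, 0.322 and 1.90 in IPP eyes, where IPP eye 4 lay within the DMSO range.

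In IPP eyes 1 of 6 ether-a-go-go genes and 2 of 3 kcnn genes were lower at an unadjusted p under 0.05 in limma, beside 5.73% of all genes. Of the 6 ether-a-go-go genes, 4 had a log2 fold change above 0. The ether-a-go-go gene kcnh5b was at 6.51, 6.92, 4.11 and 5.74 FPKM in DMSO eyes and at 4.54, 3.46, 2.73 and 2.53 in IPP eyes, with DMSO eye 3 below IPP eye 1, a log2 fold change of -0.73 (SE 0.21) and an adjusted p of 0.316. kcnn3, which shapes the afterhyperpolarization, was at 4.39, 4.15, 3.80 and 3.48 FPKM in DMSO eyes and at 2.45, 3.44, 1.64 and 2.34 in IPP eyes, just without overlap, with a log2 fold change of -0.62 (SE 0.19) and an adjusted p of 0.34. kcnn1a had 14.6 ± 1.90 and 11.8 ± 1.13 FPKM, and the silent subunit gene kcns3a 3.49 ± 0.614 and 2.33 ± 0.634. The large-conductance gene kcnma1a had a log2 fold change of 0.27 (SE 0.19).

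**Figure D4:**
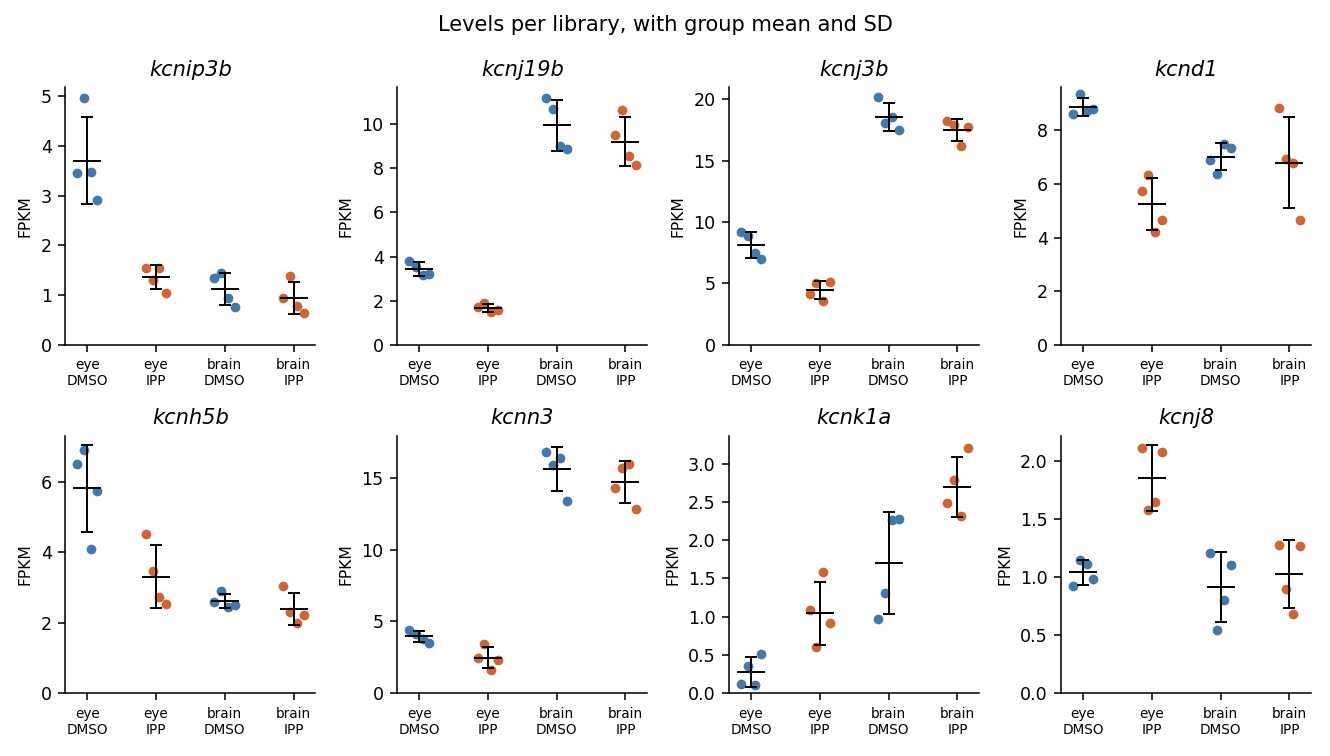
FPKM in each of the 16 libraries for 6 members that were lower and 2 that were higher in IPP eyes; blue points are DMSO, orange points IPP, and black marks the mean and SD of 4. In eye the groups are apart for all but kcnh5b, whereas in brain only the groups of kcnk1a are apart; none of these genes passed the adjusted threshold.

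Of the genes that set the eye apart from the brain, kcnb2 was close to its DMSO level in IPP eyes, while others had wider intervals. kcnb2 was at 53.1, 58.0, 58.5 and 57.9 FPKM there, within 1 FPKM of the DMSO mean in 3 libraries. Its log2 fold change was -0.02, with a 95% interval from -0.19 to 0.16. The change was -0.07 (interval -0.31 to 0.18) for kcnv2a, 0.09 (-0.31 to 0.50) for kcng4b and -0.02 (-0.39 to 0.36) for kcnh6a. For kcnv2b it was 0.19 (-0.38 to 0.76), with IPP eye 4 at 16.9 FPKM and the other IPP eyes between 6.65 and 8.43. For kcnj14, absent from DMSO brains, it was 0.91 (-0.27 to 2.09). The 16 genes of the rod and cone list summed to 16937 to 20171 FPKM in DMSO eyes and to 18118 to 20511 in IPP eyes.

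Marker lists of several cell types leaned to one side in IPP eyes, with no gene of theirs past the adjusted threshold. All 11 mature neuron genes had a log2 fold change below 0, with a median of -0.29, and summed to 1096 to 1374 FPKM in DMSO eyes and 929 to 1029 in IPP eyes. Of the 7 retinal ganglion cell genes 6 were below 0, with a median of -0.66 and sums of 242 to 333 FPKM and 160 to 199. Eye DMSO 4 had the lowest level of both lists among the DMSO eyes. Skeletal muscle genes were below 0 for 8 of 9, lens genes for 8 of 9 and skin genes for 1 of 10, with medians of -0.59, -0.14 and 0.28. The summed levels of these 3 lists overlapped between DMSO and IPP eyes. Of all genes tested in eye, 50.5% were below 0. In brain 10 of 11 mature neuron genes and 5 of 7 ganglion cell genes were below 0, beside 46.9% of all genes, with medians of -0.12 and -0.24. The part of these lists in the channel values was not tested. Of other genes of potassium handling and excitability, sodium-potassium pump and potassium-chloride transport genes were 8 lower and 8 higher of 16 tested, with 1 and 2 at an unadjusted p under 0.05. Partners of potassium channels were 5 lower and 12 higher of 17, with 1 and 2, and sodium and HCN channel genes 5 lower and 5 higher of 10, with 2 and 1. Of all genes 5.73% were lower and 5.3% higher at that p.

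In brain 0 of 75 members were called, beside 0% of 17533 genes, and the smallest adjusted p of a member was 1.0. At an unadjusted p under 0.05, 0 members were lower, against 1.36% of all genes, and 2 were higher, against 1.56%. These were kcnk1a and kcnab2a, a gene of a cytoplasmic beta subunit of Shaker channels. kcnab2a was at 0.313, 1.202, 0.545 and 0.908 FPKM in DMSO brains and at 1.51, 2.15, 1.25 and 1.199 in IPP brains, where DMSO brain 2 and IPP brain 4 met, with a log2 fold change of 0.74 (SE 0.29). With limma-voom the counts were 2 lower and 2 higher, again with 0 called and with no share of all genes to set beside them. The groups did not overlap in 1 member that was lower, the ether-a-go-go gene kcnh4b with 3.01 ± 0.351 and 2.30 ± 0.455 FPKM, beside 1.1% of all genes, and in 1 that was higher, kcnk1a, beside 0.958%.

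The median log2 fold change of the 75 members in brain was 0.02 and that of all genes 0.01, and 36 were below 0, against 46.9% of all genes. The precision differed among the most abundant brain members. kcnn1a was at 51.4, 48.5, 51.3 and 48.0 FPKM in DMSO brains and at 52.2, 49.6, 44.0 and 42.9 in IPP brains, a log2 fold change of -0.08 with a 95% interval from -0.26 to 0.10. The interval was the same for kcnj3b, and it was wider for kcnc1a, from -0.60 to 0.11, and for kcnma1a, from -0.47 to 0.39. Of the lists, pump and transport genes were 6 lower and 9 higher of 15, and sodium and HCN channel genes 7 lower and 3 higher of 10. Channel partners were 14 lower and 2 higher of 16, with 1 lower at an unadjusted p under 0.05, beside 1.36% of all genes.

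**Figure D5:**
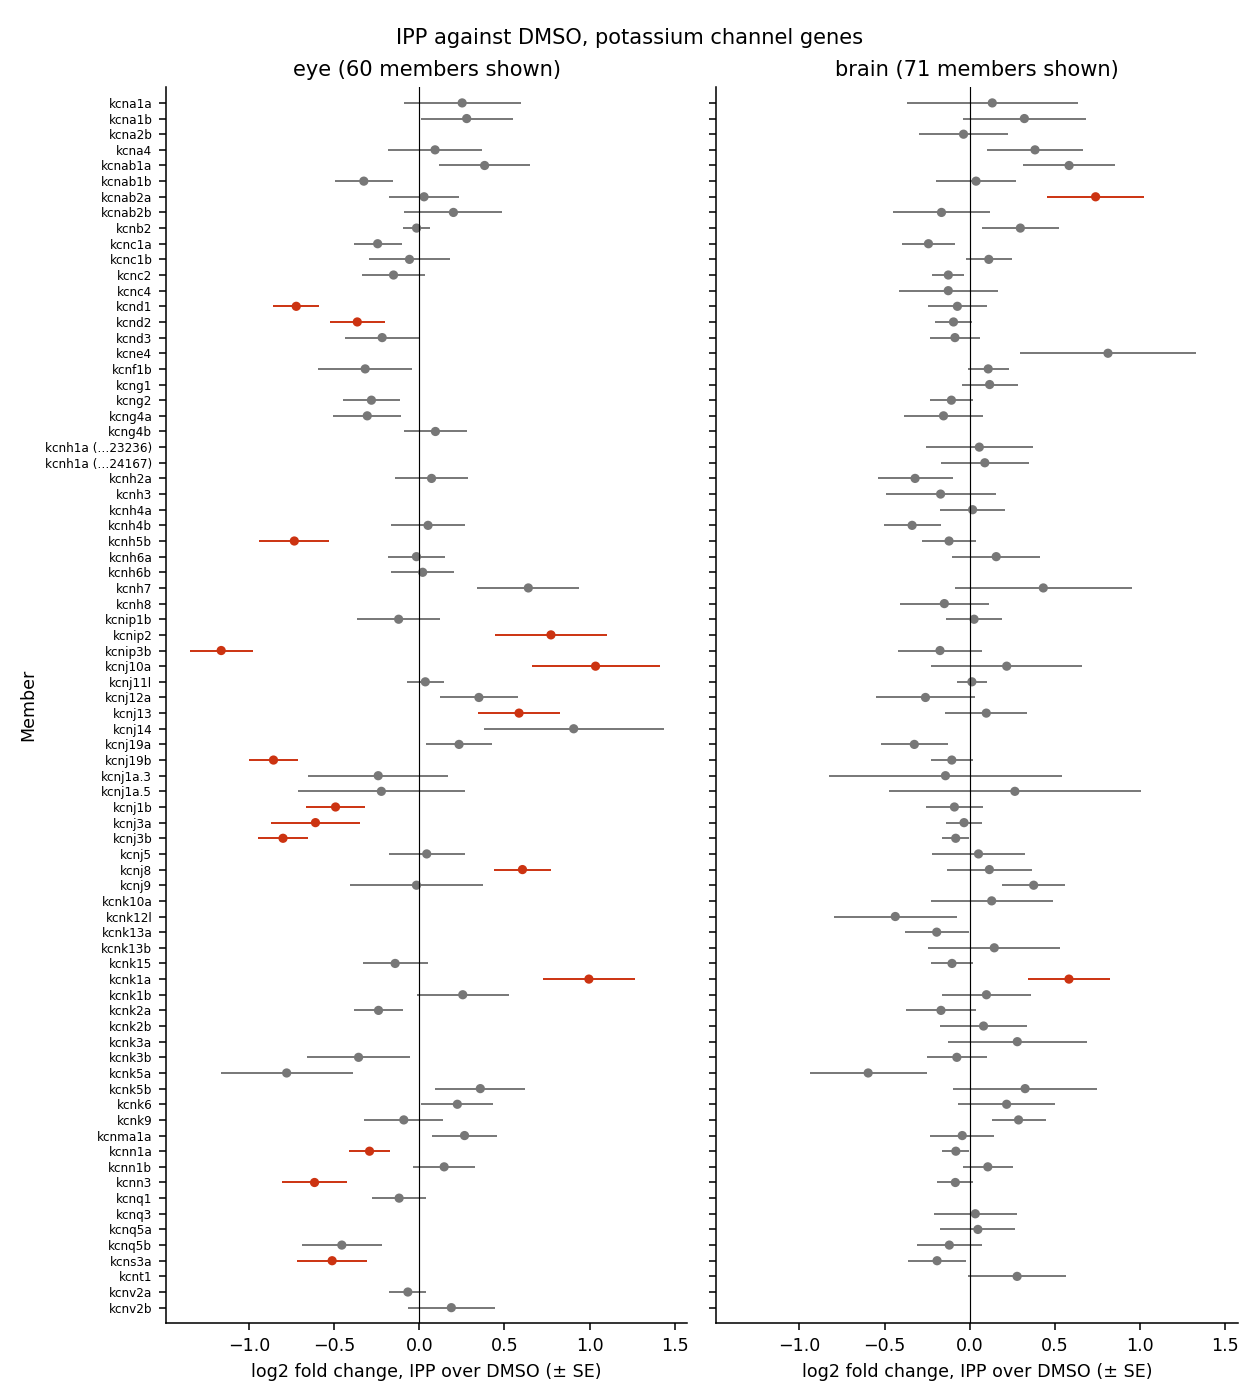
Log2 fold change of IPP over DMSO with its SE (FPKM + 0.5, limma) for the members reported here of the 63 tested in eye and the 75 in brain, ordered by class; red marks an unadjusted p under 0.05. Red points lie on both sides of 0 in eye, with 11 below and 5 above, and 2 above in brain; no member passed the adjusted threshold.

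Within the IPP brains several members were far apart between libraries. kcna1a was at 10.1, 7.66, 2.80 and 2.19 FPKM in IPP brains 1 to 4 and at 4.16, 2.08, 5.30 and 7.12 in DMSO brains, and kcnj10a at 6.65, 6.86, 2.31 and 1.79 and at 3.48, 1.75, 3.49 and 4.69. IPP brains 1 and 2 were thus high and IPP brains 3 and 4 low for these genes, and the DMSO brains lay mostly between. kcnma1a followed the same order, with 28.9, 23.8, 16.8 and 16.4 FPKM in IPP brains. The same libraries differed in other ways, since the mean log2 deviation of the skin list was -2.55 and -2.52 in IPP brains 1 and 2 and 2.26 and 2.43 in IPP brains 3 and 4, and that of the activity list was -1.15, -0.42, 1.40 and 1.37. The sodium and HCN channel list stood at 0.43, 0.28, -0.24 and -0.53 in IPP brains 1 to 4, and the channel partner list at 0.37, 0.24, -0.33 and -0.34. DMSO brain 4, with the skin list at 2.18, had the highest kcna1a and kcnj10a levels of the DMSO brains. The part of these lists in the channel values was not tested.

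A few low members were high in the brain libraries with the most RNA of genes typical of other tissues. kcne4, an auxiliary subunit gene, was at 3.19 FPKM in IPP brain 4, the library with myl7, and between 0.0467 and 0.469 in the other 7 brain libraries. kcnh6a was at 3.95 FPKM in IPP brain 4 and between 1.49 and 2.07 in the others. The tandem gene kcnj1a.3, of the family that serves ionocytes in fish skin, was at 2.16 and 1.91 FPKM in DMSO brain 4 and IPP brain 4, where the skeletal muscle list stood at 2.51 and 2.44 and the skin list at 2.18 and 2.43, and at most 0.302 elsewhere in brain. In IPP brain 3, where the skin list stood at 2.26 and the muscle list at 0.53, it was at 0.189 FPKM. It overlaps kcnj1a.2, so reads may be shared among the copies. kcnk5b was at 1.62, 2.34 and 3.31 FPKM in DMSO brain 4, IPP brain 3 and IPP brain 4, the libraries with the highest skin list, and at most 0.992 in the others. The part of other tissues in these values was not tested.

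The difference of the IPP change between eye and brain was tested over the 56 members with at least 0.5 FPKM in both. No member was called, beside 0% of 15856 genes, and the smallest adjusted p was 1.0. At an unadjusted p under 0.05 the change was lower in eye than in brain for 6 members, against 2.6% of all genes, and higher for 0, against 1.43%. The 6 were kcnj19b with a log2 difference of -0.75 (SE 0.17), kcnj3b with -0.72 (SE 0.16), kcnip3b with -0.99 (SE 0.29), kcnd1 with -0.65 (SE 0.22), kcnn3 with -0.53 (SE 0.22) and kcnh5b with -0.61 (SE 0.26). The median difference was -0.15 over the members and -0.03 over all genes, and 37 of 56 were below 0, against 55% of all genes. The brain changes of these 6 lay between -0.17 and -0.07.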

How the data were processed

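RNA was sequenced from 16 libraries in 4 groups of 4, as paired reads of 150 bp at a nominal 40 M per sample, per the labels. FPKM values were deposited in separate tables for eye and brain, with coordinates and gene lengths; HISAT2 2.0.5 and featureCounts 1.5.0-p3 are listed per the submitters' processing notes. No header or label names the genome build or how FPKM was calculated. FPKM times length gave whole reads, to within 0.01, for 100% of values. These rebuilt reads count PCR copies too and were used for depth, for comparing library pairs and for limma-voom.

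Within a tissue, genes whose 8 libraries averaged 0.5 FPKM or more entered limma 3.58.1 (R 4.3.3; lmFit, eBayes with trend) as log2(FPKM + 0.5) (two-sided, Benjamini-Hochberg over all genes, threshold 0.05). The difference between tissues was fitted over all 16 libraries. Fold changes on this scale understate those of low genes. No block was used. Deviations of same-numbered libraries correlated between -0.08 and 0.31 within a tissue. Between eye and brain they correlated between 0.21 and 0.38 with IPP and between -0.14 and 0.44 with DMSO, so not every pair was above 0.1. No library pair was a duplicate. On simulated data with normal noise the test found 63 of 100 brain genes changed by 2-fold and called 7 of 17333 unchanged ones. In eye it called 8 of 16896 unchanged ones. Changes were put only into genes of at least 2 FPKM, with 100 more genes changed by 4-fold at the same time. Many changed genes make the adjusted threshold easier to pass. No gene was called in the measured data, so these numbers do not give what the test would find there.

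The members, the gene lists and the rule for named members were chosen with earlier results of these data known. That rule took, per tissue, the 6 smallest p in each direction, the highest member of each class, the 8 highest ratios each way between tissues, the 5 smallest p of the difference, those next to the limit, a few fixed channels, and copies of these. Alternatives were pseudocounts of 0.1 and 1, no filter and 2 FPKM, quantile normalization, rescaling to a common sum (TPM), limma-voom on the rebuilt reads with median-of-ratios scaling, a replicate block, and leaving out libraries. The reference name table held all 82 identifiers. Sequences were not used here. A few channel genes are counted in the totals but are not reported here by name.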

Additional observations from a re-analysis of the deposited data

Results flagged for a closer look

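Within a group of 4, a library far from the other 3 by Dixon's criterion was found in 17 of the 196 groups looked at. The criterion marks about 1 in 20 groups of normal values. No share over all genes was taken, so the number is not a result about the channel genes. In eye these were kcnb2 at 51.9 FPKM in DMSO 3 (others 58.9 to 60.1) and 53.1 in IPP 1 (57.9 to 58.5), kcng4b at 10.02 in DMSO 2 (6.94 to 7.44), kcnh4b at 1.12 in DMSO 3 (1.51 to 1.57) and kcnh7 at 1.08 in DMSO 4 (0.309 to 0.331). kcnk5a was apart in both eye groups, at 2.02 FPKM in DMSO 1 (0.990 to 1.09) and 1.90 in IPP 4 (0.219 to 0.322). kcnv2a was at 9.23 FPKM in IPP 4 (10.51 to 10.59).

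In brain they were kcng1 at 2.58 FPKM in DMSO 1 (others 3.51 to 3.58), kcnip1b at 6.80 in DMSO 1 (8.44 to 8.66), kcnc2 at 12.6 in DMSO 3 (11.1 to 11.3) and kcnk15 at 10.4 in DMSO 4 (13.998 to 14.5). kcnk2b was at 7.25 FPKM in IPP 1 (3.06 to 3.59). IPP 4 was apart for kcne4 at 3.19 FPKM (0.233 to 0.469), kcnh4a at 3.61 (2.30 to 2.44) and kcnj1a.3 at 1.91 (0 to 0.189), and DMSO 4 for kcnj1a.3 at 2.16 (0 to 0.302).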

How the results depend on the processing

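No member passed the adjusted threshold under any setting run. The 8 members plotted by library kept their direction in eye. They were picked from these data by their small p, so a kept direction adds no support. The counts at an unadjusted p under 0.05 moved. No share of all genes is given for the other settings in this section, so their counts are not a result about the members. In eye, where 11 were lower and 5 higher, a filter at 2 FPKM left 1 higher with a median of -0.23, no filter gave 9 lower with a median of 0.02, TPM gave 7 lower, leaving out IPP 3 and 4 gave 5 lower, and leaving out DMSO 4 and IPP 4 (chosen after seeing the data) gave 10 higher with 40 genes called over all genes, 0 of them members. Leaving out each eye library in turn gave 7 to 11 lower, 2 to 8 higher, medians from -0.10 to -0.00 and 0 to 3 genes called. The 3 genes came without DMSO 4, which also gave 8 higher, and 1 came without IPP 1, which gave 2 higher. Without DMSO 1, DMSO 2, DMSO 3 or IPP 2 the higher count was 3, and without DMSO 2 or IPP 3 the lower count was 7.

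In brain, where 0 were lower and 2 higher, the count of higher members was 1 with no filter, 0 at 2 FPKM, 0 with quantile normalization and 1 with TPM. That of lower members was 1 with quantile normalization and 2 with limma-voom. Leaving out IPP 3 and 4 gave 2 lower and 5 higher, and leaving out DMSO 1 and IPP 4 (chosen after seeing the data) 1 and 1. Leaving out each library gave 0 to 1 lower, 0 to 3 higher and medians from -0.07 to 0.04. The higher count was 0 without DMSO 1 or IPP 1 and 1 without DMSO 2, DMSO 3 or IPP 2, and the lower count was 1 without DMSO 4, IPP 3 or IPP 4.

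For the difference between tissues, with 6 lower and 0 higher, TPM gave 3 and 1 and leaving out IPP 3 and 4 gave 1 higher. Leaving out each library gave 4 to 8 lower, 0 to 2 higher and medians from -0.20 to -0.05; it was 2 higher without eye IPP 4 or brain DMSO 4 and 1 without brain DMSO 2 or brain IPP 3. With the replicate number as a block, eye had 10 lower and 4 higher, brain 1 lower and 2 higher, and the difference 7 lower and 3 higher, with 0 called in each; the pairing check gave correlations from -0.08 to 0.05 in eye and from 0.03 to 0.31 in brain. Between eye and brain all 4 IPP pairs were above 0.1 (0.21 to 0.38), but 1 of 4 DMSO pairs was at -0.14, so whether the numbers pair the tissues is unsettled, and the test of the difference above takes the libraries as separate. Of the eye and brain levels, 23 members were at least 4-fold higher in brain with TPM and 5 with a pseudocount of 1, and leaving out each library gave 7 to 8 higher in eye and 12 to 16 in brain. The cause of these shifts was not tested. With 4 libraries a group, the median SE of a member was 0.22 in eye and 0.23 in brain on the log2 scale.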

Other observations

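The libraries differed in how many members were at their highest or lowest level in them. Among the 63 eye members DMSO 3 was the lowest of the 8 libraries for 16, beside 17.1% of all genes, and the highest for 2, beside 12.1%. DMSO 4 was the lowest for 0, beside 8.65%, and the highest for 11, beside 9.42%. DMSO 1 was the highest for 16, beside 12.5%. Among the 75 brain members IPP 1 was the highest for 20, beside 13.9% of all genes, IPP 4 the lowest for 21, beside 21.8%, and DMSO 2 the lowest for 19, beside 11.7%.

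The coefficient of variation over the 4 DMSO libraries had a median of 27.4% over the eye members and 22.4% over the brain members. The Shal gene kcnd2 was at 16.9, 17.1, 16.6 and 16.9 FPKM in DMSO brains and at 16.4, 17.2, 17.4 and 12.6 in IPP brains, so IPP brain 4 alone was low.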
